A study of Mus musculus with 2 samples.

Results

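The subject here is the distribution of 5-hydroxymethylcytosine (5hmC) over 3 clusters of KRAB zinc-finger genes in embryonic stem (ES) cells of the mouse strain 129SvEv. Cells kept with 100 µM ascorbic acid (AA) for 24 h gave 1 library, and cells for which no incubation is labelled gave the other, taken here as cells without AA. Biotin was attached to 5hmC in sheared genomic DNA, the tagged fragments were pulled down and sequenced, and the enriched regions (peaks) of each library were deposited as a list. The name written in the header of each list is that of the other sample (2 of 2), so the lists are called AA-labelled and no-AA-labelled after the deposition record, and every difference between them changes sign if the headers hold. A peak was a member if its midpoint fell in chr4:145000000-147700000, chr13:65500000-68000000 or chr2:175000000-178000000 of build mm9. These limits were set with earlier results of the same lists known. They took in 292 of 57827 AA-labelled peaks and 370 of 63834 no-AA-labelled peaks, 662 of 121661 in all, and all of them were kept. By cluster, the AA-labelled list held 164 members on chromosome 4, 90 on chromosome 13 and 38 on chromosome 2, and the no-AA-labelled list 217, 113 and 40.

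KRAB zinc-finger proteins are DNA-binding repressors. Each carries an array of zinc fingers that reads a DNA sequence and a KRAB domain that recruits the corepressor TRIM28, which brings in the histone methyltransferase SETDB1, and in ES cells many of them silence endogenous retroviruses. Their genes arose by repeated tandem duplication and lie side by side in clusters of close copies. 5hmC is made from 5-methylcytosine by the Tet dioxygenases, so it marks places where methylated DNA has been oxidised. Ascorbic acid is known to raise the activity of these enzymes.

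The peaks lie on mm9, and no annotation or sequence of that build was used here, so no peak is given a gene name. The kind of genes in such clusters can be read from the gene order in RefSeq on build GRCm38.p6. On chromosome 4, between Tnfrsf8 and Miip, it lists 82 genes, of which 56 are pseudogenes and 17 are protein-coding genes with zinc-finger symbols, among them Zfp600 and Rex2. On chromosome 13, the stretch that begins with Zfp369 and ends with Zfp273 has 114 genes, 45 of them pseudogenes and 27 with zinc-finger symbols, among them Rsl1, a repressor of male-specific liver genes. On chromosome 2, between Edn3 and Phactr3, 80 genes are listed, with 25 pseudogenes and 9 genes with zinc-finger symbols. These stretches were chosen by symbol, and which of their genes fall within the mm9 limits was not determined.

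Likeness of promoters to those of other genes differed between the stretches. RefSeq promoters (300 bases, from 250 before to 50 after a gene's start) were searched for exact stretches of 101 bases, the length of a tag here. A stretch counted if it also occurs in the promoter of another gene on any chromosome, not only of a neighbouring copy. Such a stretch was found for 9 of 19 genes of the chromosome 4 stretch that have a promoter in the table (47.4%), for 4 of 54 on chromosome 13 (7.41%) and for 28 of 48 on chromosome 2 (58.3%), against 1320 of 26904 other genes (4.91%). Among zinc-finger symbols the counts were 5 of 13 on chromosome 4, 0 of 23 on chromosome 13 and 7 of 9 on chromosome 2. A read from within such a stretch matches both places. CG dinucleotides, the main substrate of methylation, were counted for each gene in its promoter with most of them. Over all genes of the stretches the median was 4 per 300 bases on chromosome 4, 6 on chromosome 13 and 3.5 on chromosome 2, against 8 in other genes. For the genes with zinc-finger symbols the median was 5 on chromosome 4, 8 on chromosome 13 and 5 on chromosome 2.

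The degree of likeness is shown by the pair of zinc-finger genes in each stretch with the longest identical run in the 250 bases before the start. Sequences are from RefSeq on GRCm38.p6 (positions not comparable with the mm9 positions of the peaks), on the strand of the gene, 5′ to 3′, with the run that the pair shares in capitals. On chromosome 2 the upstream bases of Zfp966 (chr2:175931101-175931350, minus strand) and Zfp967 (chr2:176520754-176521003, plus strand) are identical over all 250 bases.
Zfp966: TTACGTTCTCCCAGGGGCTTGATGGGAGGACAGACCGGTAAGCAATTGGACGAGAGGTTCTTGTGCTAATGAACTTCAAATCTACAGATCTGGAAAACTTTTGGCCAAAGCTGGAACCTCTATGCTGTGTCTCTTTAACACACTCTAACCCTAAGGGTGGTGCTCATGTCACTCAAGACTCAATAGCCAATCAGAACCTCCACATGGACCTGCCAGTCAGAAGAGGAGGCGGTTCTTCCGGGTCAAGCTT
Zfp967: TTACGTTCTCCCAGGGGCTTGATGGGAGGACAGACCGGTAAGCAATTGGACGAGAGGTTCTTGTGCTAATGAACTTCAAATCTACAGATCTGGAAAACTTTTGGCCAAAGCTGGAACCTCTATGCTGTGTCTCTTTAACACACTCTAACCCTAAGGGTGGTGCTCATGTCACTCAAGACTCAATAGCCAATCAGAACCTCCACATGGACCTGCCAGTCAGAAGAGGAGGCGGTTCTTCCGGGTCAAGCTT

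On chromosome 4, Zfp600 (chr4:146156577-146156826, plus strand) and Rex2 (chr4:147021600-147021849, plus strand) share 235 of the 250 bases as 1 run that reaches the start.
Zfp600: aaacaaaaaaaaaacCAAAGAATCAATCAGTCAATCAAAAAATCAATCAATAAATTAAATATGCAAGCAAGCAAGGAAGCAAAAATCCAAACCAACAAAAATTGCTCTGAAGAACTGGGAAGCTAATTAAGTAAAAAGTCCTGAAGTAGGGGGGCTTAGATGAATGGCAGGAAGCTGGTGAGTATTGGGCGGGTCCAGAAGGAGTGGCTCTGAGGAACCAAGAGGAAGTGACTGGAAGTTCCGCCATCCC
Rex2: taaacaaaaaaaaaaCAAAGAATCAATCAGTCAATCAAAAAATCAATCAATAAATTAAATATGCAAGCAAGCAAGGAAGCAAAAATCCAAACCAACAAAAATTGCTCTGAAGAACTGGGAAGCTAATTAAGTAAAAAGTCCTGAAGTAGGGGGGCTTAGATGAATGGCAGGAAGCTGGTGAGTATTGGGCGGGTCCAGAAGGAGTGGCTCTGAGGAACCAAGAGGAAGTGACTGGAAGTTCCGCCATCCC

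On chromosome 13 the longest shared run was 61 bases, shorter than a tag, in Rsl1 (chr13:67172932-67173181, plus strand) and Zfp429 (chr13:67399768-67400017, minus strand).
Rsl1: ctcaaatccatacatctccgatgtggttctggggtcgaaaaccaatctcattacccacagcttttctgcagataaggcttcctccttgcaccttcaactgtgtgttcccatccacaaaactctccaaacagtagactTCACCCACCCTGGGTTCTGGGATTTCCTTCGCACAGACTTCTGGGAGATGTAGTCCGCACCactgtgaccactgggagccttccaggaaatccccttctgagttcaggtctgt
Zfp429: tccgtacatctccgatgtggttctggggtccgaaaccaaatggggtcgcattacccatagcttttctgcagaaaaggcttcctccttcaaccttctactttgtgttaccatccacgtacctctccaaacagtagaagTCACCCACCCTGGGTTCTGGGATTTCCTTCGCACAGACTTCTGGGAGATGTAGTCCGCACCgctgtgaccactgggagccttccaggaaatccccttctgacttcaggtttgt

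Depth differed between the libraries. The AA-labelled library kept 11907082 tags (aligned reads, 1 per position) at an estimated fragment length of 229 bp, and the no-AA-labelled library 18398162 tags at 165 bp, 1.55 times as many. With 1 library a group there is no replicate spread and no test was made between libraries. Clusters were set beside the rest of their chromosomes as a description only, since they were chosen with these values known. Intervals are exact 95% intervals (Poisson for counts, Clopper-Pearson for shares, conditional on the sum for ratios of counts, order statistics for medians) and cover counting error only.

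The first comparison asked how densely each cluster was filled with 5hmC peaks. The 3 clusters went different ways: that on chromosome 4 was rich in peaks, that on chromosome 13 was moderately rich, and that on chromosome 2 was poor in peaks. These are densities of called peaks. The peaks were called with no control, and rates per Mb take full coordinates, with no correction for sequence where reads cannot be placed. The part of either in the densities and in the stretches without peaks was not tested. Per Mb, the chromosome 4 cluster had 60.7 peaks in the AA-labelled list (51.8 to 70.8) and 80.4 in the no-AA-labelled list (70.0 to 91.8). The rest of chromosome 4 held 21.5 (20.7 to 22.2) and 23.3 (22.5 to 24.1). The cluster was thus 2.83 times as dense as the rest in the AA-labelled list (2.40 to 3.31) and 3.45 times in the no-AA-labelled list (2.997 to 3.962). Each of the 54 other windows of the same 2.7 Mb width on the chromosome held fewer, at most 108 in the AA-labelled and 110 in the no-AA-labelled list. In windows of 1 Mb across the genome, the ones that begin at 145 and 146 Mb on chromosome 4 ranked 1 and 2 in both lists. They had 71 and 68 peaks in the AA-labelled list, where the next fullest window had 62, against 92 and 90 in the no-AA-labelled list, where it had 72.

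The chromosome 13 cluster held 36.0 AA-labelled peaks per Mb (28.9 to 44.2) and 45.2 no-AA-labelled peaks per Mb (37.2 to 54.3), against 24.5 (23.6 to 25.4) and 26.1 (25.2 to 27.1) in the rest of its chromosome. The ratios were 1.47 (1.18 to 1.81) and 1.73 (1.42 to 2.09). Of 44 other windows of 2.5 Mb on the chromosome, 8 were fuller in the AA-labelled list and 1 in the no-AA-labelled list. The density of this cluster lay within the range of its chromosome.

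The chromosome 2 cluster held 12.7 AA-labelled peaks per Mb (8.96 to 17.4) and 13.3 no-AA-labelled peaks per Mb (9.53 to 18.2), against 22.8 (22.1 to 23.5) and 24.5 (23.7 to 25.2) in the rest. The ratios were 0.556 (0.392 to 0.764) and 0.545 (0.389 to 0.743). Of 58 other windows of 3 Mb on chromosome 2, 9 were emptier in the AA-labelled list and 8 in the no-AA-labelled list. Peaks with a fold enrichment of at least 10 numbered 4.33 per Mb of the cluster in the AA-labelled list and 3.67 in the no-AA-labelled list, against 4.63 and 2.34 in the rest, so the direction turned round in the no-AA-labelled list (log2 ratio 0.65, -0.37 to 1.50). In the stretches on chromosomes 4 and 2, 47.4% and 58.3% of the genes searched had a promoter like that of another gene. The part of this likeness in the opposite densities was not tested.

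**Figure D1:**
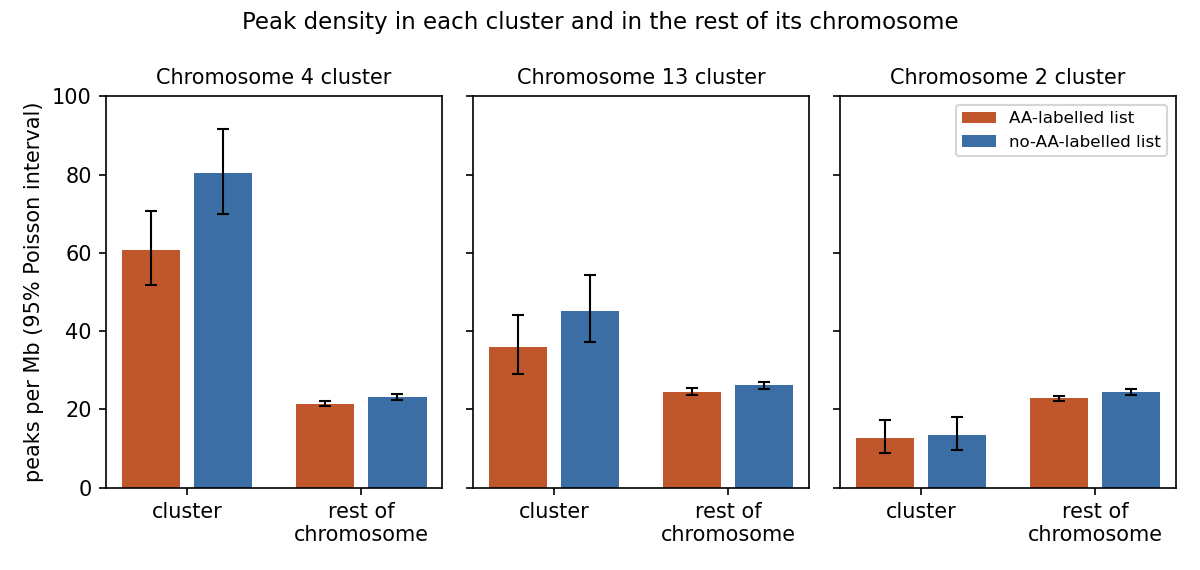
Peaks per Mb (y axis) in each cluster and in the rest of its chromosome, for the AA-labelled and the no-AA-labelled list; bars start at 0 and error bars are 95% Poisson intervals of the count. The chromosome 4 cluster stands at 60.7 and 80.4 peaks per Mb, the chromosome 13 cluster at 36.0 and 45.2, and the chromosome 2 cluster at 12.7 and 13.3, against 21.5 to 26.1 in the rest of the chromosomes.

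Counted in sequence, peaks covered 7.35% of the chromosome 4 cluster in the AA-labelled list and 7.74% in the no-AA-labelled list, against 2.64% and 2.12% of the rest of chromosome 4. On chromosome 13 the cluster was covered to 3.96% and 3.56%, against 2.73% and 2.18%, and on chromosome 2 to 1.14% and 0.958%, against 2.65% and 2.12%. Tags inside peaks followed the same order. Per Mb and per 1000000 kept tags, the chromosome 4 cluster held 228 AA-labelled and 205 no-AA-labelled tags, against 64.9 and 43.1 in the rest. The chromosome 13 cluster held 114 AA-labelled and 86.9 no-AA-labelled tags, against 63.7 and 43.0. In the chromosome 2 cluster there were 23.4 AA-labelled and 18.8 no-AA-labelled tags, against 64.4 and 42.8.

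The second comparison asked where within each cluster the peaks lay. On chromosome 4 the high density ran through most of the cluster, up to 147200000, without a break. Its 500-kb windows, from the start of the cluster, held 43, 28, 31, 37 and 19 AA-labelled peaks and 52, 40, 44, 46 and 27 no-AA-labelled peaks, and the last 200 kb held 6 and 8. The first window was the fullest in both lists and the fifth the emptiest full-width one. From 147200000 to the distal limit, windows of 100 kb held 2, 2, 3, 2 and 4 AA-labelled peaks. They held 3, 3, 4, 2 and 6 no-AA-labelled peaks, where the median in the rest of chromosome 4 was 2 in both lists. None of the 27 windows of 100 kb was empty in either list: the AA-labelled list had 2 to 13 peaks in each (median 6), and the no-AA-labelled list also 2 to 13 (median 8), where 21.6% and 20.2% of such windows in the rest of chromosome 4 were empty. The median distance between neighbouring peaks was 9516 bp in the AA-labelled and 7174 bp in the no-AA-labelled list, against 24200 bp and 22990 bp in the rest. The longest stretch with no peak of either list ran from 147243855 to 147318388 (74534 bp).

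The 100 kb just inside the proximal limit on chromosome 4 had 13 AA-labelled peaks, and 10 in the other list, and the 100 kb just outside 5 and 3. At the distal limit the counts were 4 and 6 inside and 6 and 4 outside. The 3 Mb on the proximal side had 21.3 peaks per Mb among AA-labelled and 23.7 among no-AA-labelled ones, close to the level of the rest of the chromosome, and the 3 Mb on the distal side 36.3 and 35.7.

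Peaks of the chromosome 13 cluster lay mainly in its proximal part. The first 3 windows of 500 kb held 21, 20 and 28 AA-labelled and 30, 28 and 32 no-AA-labelled peaks. The fourth held 5 AA-labelled and 8 no-AA-labelled, the lowest of the cluster, and the fifth 16 and 15. The window from 66.5 to 67.0 Mb was thus the fullest, at 56 and 64 peaks per Mb, within the range of the chromosome 4 windows. The longest stretch without a peak, 111477 bp from 67408666 to 67520142, began in the fourth window. Just inside and just outside the proximal limit the 100-kb counts were 7 and 5 among AA-labelled peaks, against 9 and 5 among no-AA-labelled peaks. At the distal limit they were 9 and 1 among AA-labelled peaks, against 2 and 1 among no-AA-labelled peaks. The 3 Mb before the cluster had 31.0 peaks per Mb among AA-labelled and 32.3 among no-AA-labelled ones, and the 3 Mb after it 14.0 and 22.0.

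On chromosome 2 the proximal part was nearly without peaks. Its 6 windows of 500 kb held 4, 2, 1, 9, 13 and 9 AA-labelled peaks and 3, 1, 1, 9, 16 and 10 no-AA-labelled peaks. The fifth window, at 26 per Mb among AA-labelled peaks and 32 among no-AA-labelled ones, was above the level of the rest of the chromosome, and the third, with 1 peak in each list, was the emptiest in the AA-labelled list and level with the second in the no-AA-labelled list. Of the 30 windows of 100 kb, 12 were empty in the AA-labelled list, 12 in the no-AA-labelled list and 9 in both, where 19.5% and 15.7% were empty elsewhere on the chromosome. A single stretch of 527038 bp, from 175804907 to 176331944, had no peak in either list. The flanks were well filled, with 37.0 peaks per Mb (AA-labelled) and 34.7 (no-AA-labelled) in the 3 Mb before the cluster and 26.3 and 35.7 in those after it. In the 100 kb on each side of the proximal limit the counts were 3 inside and 0 outside among AA-labelled peaks, against 1 and 1 among no-AA-labelled peaks. Those at the distal limit were 2 and 1 among AA-labelled peaks, against 0 and 0 among no-AA-labelled peaks.

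**Figure D2:**
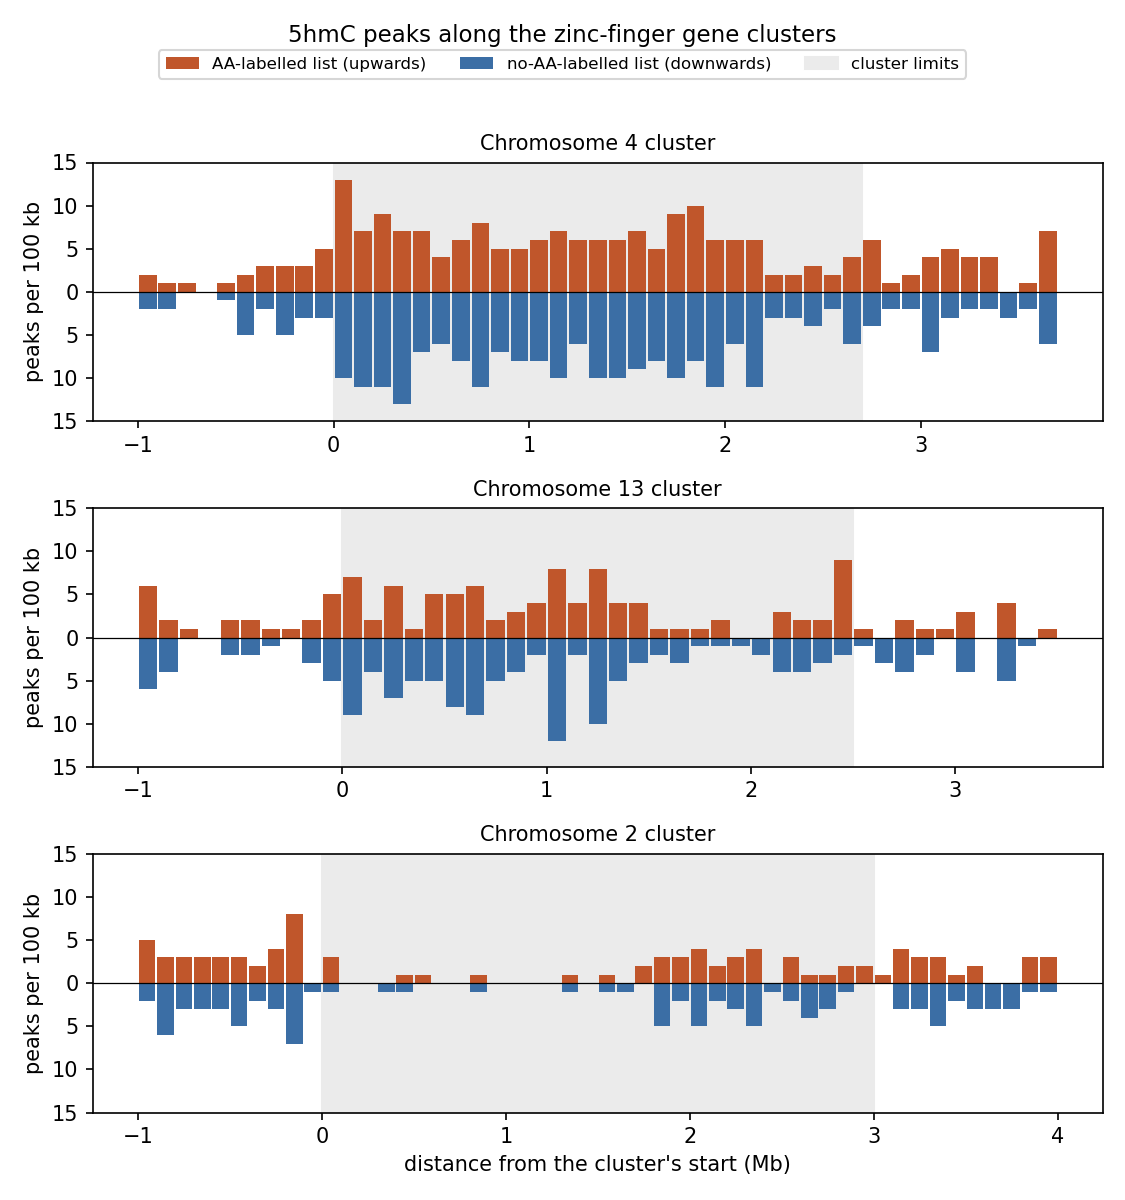
Peaks in windows of 100 kb (y axis, counts) against the distance from the start of each cluster in Mb (x axis), with 1 Mb on each side; AA-labelled peaks point up, no-AA-labelled peaks down, and grey marks the cluster limits. The chromosome 4 cluster has 2 to 13 peaks in each window of both lists, the chromosome 13 cluster is filled mainly in its first 3 windows of 500 kb, and 9 of the 30 windows of the chromosome 2 cluster are empty in both lists.

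The third comparison asked how strong the members were. The values per peak are the authors' own, set within each library. In the chromosome 4 cluster the median AA-labelled peak was 1123 bp long with 36 tags and a fold enrichment of 8.70, against 1061 bp, 29 tags and 7.47 in the rest of the chromosome. The median no-AA-labelled peak had 858 bp, 37 tags and a fold of 7.24, against 787 bp, 28 tags and 6.89. The limit of p 1e-10 was met by 65 of 164 AA-labelled members (39.6%, 32.1% to 47.6%) and by 72 of 217 no-AA-labelled members (33.2%, 26.9% to 39.9%). In the rest of the chromosome it was 21.9% and 17.1%, and among all peaks 22.9% and 18.4%. At least 100 tags were found in 10 AA-labelled members (6.10%) and 17 no-AA-labelled members (7.83%), against 2.55% and 1.83% of the peaks elsewhere on chromosome 4 and 2.28% and 1.70% of all peaks.

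Members on chromosome 13 were a little shorter than their neighbours but denser in tags. Their median length was 908 bp in the AA-labelled and 708 bp in the no-AA-labelled list, against 990 and 738 bp in the rest. Their median fold was 8.36 and 8.24, against 7.92 and 7.20, and their median tag density was 2.41 and 2.09 tags per kb and 1000000 kept tags, against 2.13 and 1.85. In this cluster 26 of 90 AA-labelled members (28.9%, 19.8% to 39.4%) and 27 of 113 no-AA-labelled members (23.9%, 16.4% to 32.8%) had a p of at most 1e-10, against 21.5% and 18.4%, values that lie inside these intervals. At least 100 tags were held by 5 AA-labelled members (5.56%, 1.83% to 12.5%), against 0.996% of the rest, which lies outside the interval, and by 3 no-AA-labelled members (2.65%, 0.551% to 7.56%), against 0.80%, which lies inside it. Among all peaks of the lists the shares were 2.28% and 1.70%, and each lies inside its interval.

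Members on chromosome 2 were short and held few tags, at a higher fold. The median was 786 bp, 19 tags and a fold of 9.61 in the AA-labelled list, against 1012 bp, 26 tags and 7.87 in the rest. In the no-AA-labelled list it was 649 bp, 22 tags and 8.76, against 762 bp, 27 tags and 6.98. A fold of at least 10 was reached by 13 of 38 AA-labelled members (34.2%, 19.6% to 51.4%) and 11 of 40 no-AA-labelled members (27.5%, 14.6% to 43.9%), against 20.3% and 9.56% of the peaks elsewhere on the chromosome and 21.7% and 10.4% of all peaks. The fold is a ratio to a background of the same library, for many peaks a fixed value rather than a regional one. Tags per kb divided by the fold, a rough stand-in for that background, had a median 0.711 times that of the rest of chromosome 2 in the AA-labelled list and 0.745 times in the other. The same measure was 1.00 and 1.16 times the rest in the chromosome 4 cluster and 1.14 and 1.06 times in the chromosome 13 cluster. The part of this background in the folds was not tested.

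Single members show the range. The pair of highest mean fold lay on chromosome 4, at 146134744 to 146135927 in the AA-labelled list with 100 tags (81.4 to 122) and 19.44-fold, and at 146134655 to 146135891 in the no-AA-labelled list with 122 tags (101 to 146) and 15.70-fold. It was followed by 145420627 to 145422189, with 47 AA-labelled tags at 16.95-fold and 70 no-AA-labelled tags at 13.87-fold, and by 145560534 to 145561460, with 23 AA-labelled tags at 14.85-fold and 40 no-AA-labelled tags at 14.04-fold. The member with most tags, named after its values were seen, was also on chromosome 4. It held 307 tags at 7.12-fold in the AA-labelled list and 337 at 5.95-fold in the no-AA-labelled list, so a peak rich in tags need not have a high fold. The longest peaks of this cluster were at 146822788 to 146825444 in the AA-labelled list (2657 bp, 112 tags) and at 146025783 to 146028285 in the no-AA-labelled list (2503 bp, 186 tags), and both were shared.

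On chromosome 13 the pairs of highest mean fold were weaker. The first lay at 65544618 to 65545833, with 24 AA-labelled tags at 10.89-fold and 27 no-AA-labelled tags at 14.23-fold. The second began at 65949135, with 36 AA-labelled tags at 11.34-fold and 24 no-AA-labelled tags at 13.39-fold, and the third at 66527294, with 63 AA-labelled tags at 14.35-fold and 65 no-AA-labelled tags at 7.87-fold. Its longest members were at 66813352 to 66816660 in the AA-labelled list (3309 bp, 131 tags) and at 66082237 to 66084232 in the no-AA-labelled list (1996 bp, 135 tags). On chromosome 2 the leading pair lay at 176869936 to 176870679, with 26 AA-labelled tags at 14.85-fold and 23 no-AA-labelled tags at 10.48-fold. A neighbour that began at 176878570 had 31 AA-labelled tags at 10.40-fold and 57 no-AA-labelled tags at 11.02-fold, and a pair that began at 177371574 had 24 AA-labelled tags at 10.01-fold and 21 no-AA-labelled tags at 10.37-fold. All 3 lay in the distal part of the cluster. The longest peak began at the same base, 177035643, in both lists, with 2731 bp and 88 AA-labelled tags, against 1940 bp and 91 no-AA-labelled tags, the most tags of any member there.

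The fourth comparison asked whether both libraries had peaks at the same places. The shares were highest in the chromosome 4 cluster. Of its AA-labelled peaks, 128 of 164 overlapped a no-AA-labelled peak (78.0%, 70.9% to 84.1%), and of its no-AA-labelled peaks 133 of 217 were shared (61.3%, 54.5% to 67.8%). The rest of the chromosome had shares of 44.0% (42.2% to 45.7%) and 41.2% (39.5% to 42.8%), and all peaks of the lists 47.5% and 43.6%. A denser list meets more peaks by position alone, and the share of sequence covered by no-AA-labelled peaks was 7.74% in the cluster against 2.12% in the rest. The part of this in the shares was not tested. Of the AA-labelled members with a p of at most 1e-10, 63 of 65 were shared, against 64 of 72 such no-AA-labelled members (96.9% and 88.9%). Strong peaks were shared more often in the rest of chromosome 4 too, in 508 of 706 (72.0%) AA-labelled and 467 of 596 (78.4%) no-AA-labelled cases.

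On chromosome 13, 50 of 90 AA-labelled members (55.6%, 44.7% to 66.0%) and 52 of 113 no-AA-labelled members (46.0%, 36.6% to 55.6%) were shared, against 44.7% and 42.2% in the rest. On chromosome 2 it was 15 of 38 AA-labelled members (39.5%, 24.0% to 56.6%) and 14 of 40 no-AA-labelled members (35.0%, 20.6% to 51.7%), against 44.9% and 42.4%. The intervals of the chromosome 13 no-AA-labelled share and of both chromosome 2 shares take in the value of the rest and that of all peaks, and the interval of the chromosome 13 AA-labelled share begins at the value of the rest. Sharing varied along the clusters. In the second 500-kb window of chromosome 4, 27 of 28 AA-labelled and 27 of 40 no-AA-labelled peaks were shared. In the fourth window of chromosome 13 it was 1 of 5 and 1 of 8. These windows are examples picked from all, with small counts.

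**Figure D3:**
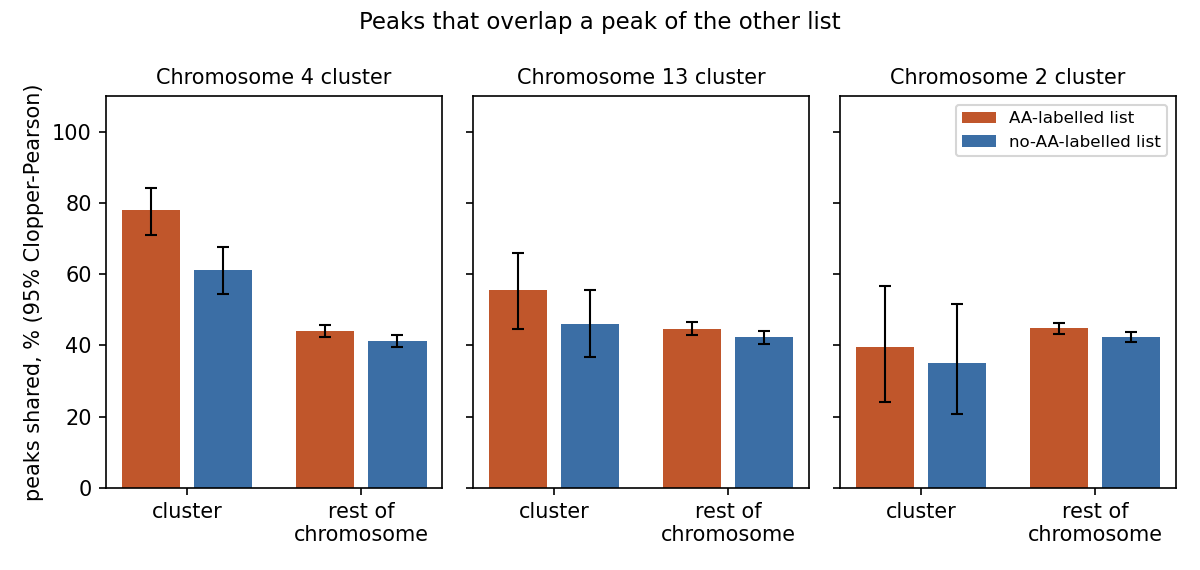
Percent of peaks with at least 1 bp in common with the other list (y axis), in each cluster and in the rest of its chromosome, for the AA-labelled and the no-AA-labelled list; error bars are 95% Clopper-Pearson intervals. The chromosome 4 cluster reaches 78.0% and 61.3%, and the chromosome 2 cluster lies at 39.5% and 35.0% with wide intervals.

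In the AA-labelled list the unshared members of highest fold on chromosome 4 were at 147096803 to 147097246, with 16 tags (9.14 to 26.0) at 15.84-fold, and at 145081629 to 145082622, with 26 tags at 11.91-fold. In the no-AA-labelled list they were at 145954474 to 145955478, with 39 tags (27.7 to 53.3) at 13.54-fold, and at 145478796 to 145479497, with 27 tags at 10.88-fold. On chromosome 13 the leading unshared members were at 67973247 (18 tags, 12.94-fold) and 67028991 (13 tags, 11.88-fold) in the AA-labelled list and at 66947205 (21 tags, 15.12-fold) and 66002536 (29 tags, 10.75-fold) in the no-AA-labelled list. On chromosome 2 the AA-labelled list had 175522838 (26 tags, 16.83-fold) and 177256758 (20 tags, 14.85-fold), and the no-AA-labelled list 177337711 and 177608118, with 29 tags each, at 13.56-fold and 13.28-fold. The tag count of the other library at such a place is not in the lists, so these peaks give no ratio.

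The fifth comparison asked whether the lists differed in the number of peaks per cluster. The chromosome 4 cluster had 164 AA-labelled peaks against 217 no-AA-labelled peaks. This gave 0.756 AA-labelled peaks for each no-AA-labelled one (0.613 to 0.930), where the rest of the chromosome had 0.923 (0.879 to 0.968) and all peaks 0.906. The intervals of cluster and rest overlap. Unshared peaks numbered 36 in the AA-labelled and 84 in the no-AA-labelled list (ratio 0.429, 0.282 to 0.640), against a ratio of 0.879 (0.825 to 0.937) in the rest. With a fold of at least 10 the order turned round in the cluster, with 51 AA-labelled against 37 no-AA-labelled peaks (ratio 1.38, 0.885 to 2.17), as it did in the rest of chromosome 4 (622 against 344, ratio 1.81, 1.58 to 2.07) and over all peaks (ratio 1.88). For chromosome 13 the ratio of all peaks was 0.796 (0.597 to 1.06), against 0.937 (0.889 to 0.987) in the rest, and its unshared peaks numbered 40 AA-labelled and 61 no-AA-labelled (ratio 0.656, 0.429 to 0.993, against 0.897 in the rest). For chromosome 2 the ratio of all peaks was 0.95 (0.593 to 1.52), against 0.932 (0.893 to 0.973) in the rest, and its unshared peaks numbered 23 AA-labelled and 26 no-AA-labelled (ratio 0.885, 0.482 to 1.61, against 0.892 in the rest). The labels differ in depth and in fragment length as well as in AA, and these cannot be told apart.

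The sixth comparison asked how 5hmC signal differed at peaks found in both lists. Tag density was set side by side in pairs of peaks that overlapped each other and no further peak, and was taken as tags per kb and 1000000 kept tags. The called length thus enters the density. The AA-labelled peak was the longer in 86 of 123 pairs on chromosome 4, 36 of 48 on chromosome 13 and 12 of 13 on chromosome 2. In the rest it was the longer in 1077 of 1386, 919 of 1243 and 1350 of 1763 pairs. The part of length in the ratios was not tested. On chromosome 4 the 123 pairs had a median of 2.69 in the AA-labelled and 2.42 in the no-AA-labelled library, against 2.34 and 2.00 in 1386 pairs of the rest. The median log2 ratio of AA-labelled over no-AA-labelled density was 0.14 (0.09 to 0.22 over pairs), against 0.22 (0.20 to 0.24) in the rest. The 48 pairs on chromosome 13 had medians of 2.91 (AA-labelled) and 2.51 (no-AA-labelled) and a log2 ratio of 0.17 (0.04 to 0.36), against 0.21 (0.18 to 0.23). The 13 pairs on chromosome 2 had medians of 1.92 (AA-labelled) and 1.91 (no-AA-labelled) and a log2 ratio of 0.05 (-0.09 to 0.28), against 0.22 (0.20 to 0.24). All 3 cluster medians of the log2 density ratio were below those of the rest, and each interval met that of the rest. For scaled tags per peak, not divided by length, the median log2 ratios were 0.37, 0.56 and 0.42 on chromosomes 4, 13 and 2. The rest had 0.53, 0.50 and 0.53, so by that measure the chromosome 13 cluster lay above its rest.

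The AA-labelled density exceeded the no-AA-labelled one in 87 of 123 pairs on chromosome 4 (70.7%), 33 of 48 on chromosome 13 (68.8%) and 7 of 13 on chromosome 2 (53.8%), against 75.2% of all 26954 pairs. A density more than 2-fold higher was seen in 1 pair on chromosome 4, 2 on chromosome 13 and 0 on chromosome 2, against 1.47% of all pairs, and one more than 2-fold lower in 0 pairs of each cluster, against 0.0223%. Ratios in the clusters ran from -0.99 to 1.14 on chromosome 4, from -0.78 to 1.05 on chromosome 13 and from -0.53 to 0.59 on chromosome 2. Without scaling, or with scaling to the tags inside peaks, the medians of all 3 clusters turned negative, to -0.49 and -0.39 on chromosome 4, -0.46 and -0.36 on chromosome 13 and -0.58 and -0.48 on chromosome 2. The sign of the difference thus rests on the choice of total. A change of total moves every pair by the same amount, in the rest as in the clusters, so the distance between cluster and rest stays.

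Where 1 library or both had at least 30 tags, the highest ratio on chromosome 4 was at 145924235 to 145924849, with 25 tags (AA-labelled) and 30 tags (no-AA-labelled) in 615 and 1055 bp and a log2 ratio of 1.14 (0.32 to 1.96). The lowest was at 146555346 to 146556181, with 19 tags (AA-labelled) and 65 tags (no-AA-labelled) in 836 and 933 bp and a log2 ratio of -0.99 (-1.81 to -0.23). On chromosome 13 the highest was at 66279132 to 66280651, with 86 tags (AA-labelled) and 41 tags (no-AA-labelled) in 1520 and 970 bp. Its log2 ratio was 1.05 (0.50 to 1.62). The lowest was at 66597642 to 66599215, with 38 tags (AA-labelled) and 64 tags (no-AA-labelled) in 1574 and 1001 bp. Its log2 ratio was -0.78 (-1.40 to -0.18). On chromosome 2 the highest was at 177066248, with 16 tags (AA-labelled) and 34 tags (no-AA-labelled) in 701 and 1094 bp. Its log2 ratio was 0.18 (-0.77 to 1.08). The lowest was at 175095909, with 23 tags (AA-labelled) and 41 tags (no-AA-labelled) in 1032 and 822 bp. Its log2 ratio was -0.53 (-1.34 to 0.24), and both intervals include 0. As these pairs are the ends of their distributions, their intervals take no account of how they were picked.

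**Figure D4:**
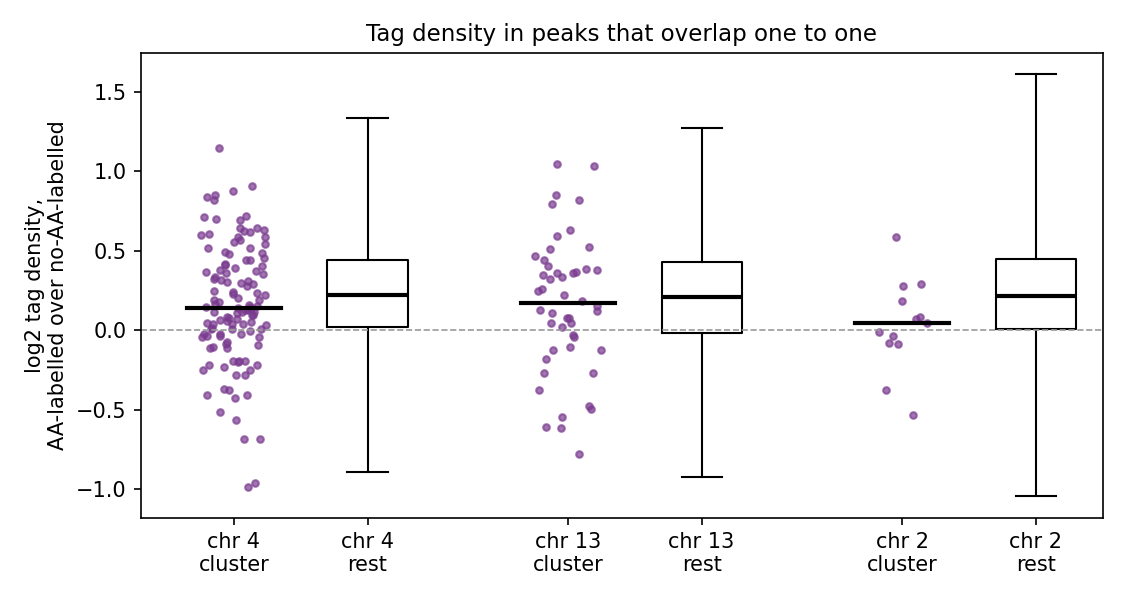
Log2 ratio of AA-labelled over no-AA-labelled tag density (y axis) in peaks paired across the lists; points are the pairs of each cluster with their median as a bar, and boxes give the quartiles, median and full range of the pairs in the rest of the chromosome. The medians are 0.14, 0.17 and 0.05 in the clusters on chromosomes 4, 13 and 2, against 0.22, 0.21 and 0.22 in the rest.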

How the data were processed

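The reads were aligned with BWA 0.5.9-r16 to mm9 and MACS 1.4.2 called the peaks, both tools named per the submitters' processing notes. How reads that match several places were treated is not given in the sources used here. Peak calling took 1 library at a time with no control, at a p cutoff of 1e-05, per the file headers. The deposited tag counts are raw, with at most 1 tag kept per position, per the file headers. The deposited score is the −log10 of the peak's p-value times 10. The deposited fold enrichment is a ratio to a background of the same library, which for many peaks was a fixed value rather than a regional one.

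Members and lists were chosen with earlier results of these data known. Peaks with at least 1 bp in common between the lists counted as shared. The rest of a chromosome ran from its first to its last peak, less the cluster. Each cluster was set among windows of its own width, laid end to end from it. Named peaks were taken by rule: the 3 pairs of highest mean fold, the 2 unshared peaks of highest fold in each list, the highest and lowest density ratio where 1 library had at least 30 tags, the longest peaks, the longest stretch without a peak, and the fullest and emptiest 500-kb windows. Likeness between RefSeq promoters was counted between genes at places that do not overlap. Computations used Python 3.11.15, pandas 2.3.3, NumPy 2.4.6 and SciPy 1.17.1 and were tested on simulated data. No test was made between libraries.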

Additional observations from a re-analysis of the deposited data

How the results depend on the processing

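With 1 library a group, no replicate was left out. No paired analysis was possible because only 1 library stands in each group. Of 150 alternatives to 18 results, 104 kept their sign and stayed within the interval of the main value, 27 kept their sign outside it, and 19 changed sign, some of them within it. Exchanging the lists can only swap values or turn their sign, and a change of scaling shifts all pairs by the same amount. Those outcomes were fixed in advance and say nothing on how firm a result is. The cause of the other changes was not tested.

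Peaks per Mb against the rest (log2; AA-labelled and no-AA-labelled list): chromosome 4, at 1.50 and 1.79, became 2.35 and 2.75 with a p of at most 1e-10, 2.19 and 2.58 with a fold of at least 10, and 1.79 and 1.50 with the lists exchanged to match their headers. Chromosome 13, at 0.56 and 0.79, became 0.98 and 1.17 with the p limit, and 1.31 in the no-AA-labelled list with the fold limit. Chromosome 2, at -0.85 and -0.88, became -0.10 and 0.65 with the fold limit.

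Shared percentages: chromosome 4, at 78.0 and 61.3, became 68.9 and 52.1 with 50% reciprocal overlap and 61.3 and 78.0 with the lists exchanged. Its AA-labelled share became 67.7 with the p limit and 41.2 with the fold limit, each set on both lists. Against the full other list these shares were 96.9 and 92.2, where the rest had 72.0 and 59.5. Chromosome 13, at 55.6 and 46.0, became 8.3 and 11.8 with the fold limit in both lists. Against the full other list, 15 of 24 such AA-labelled members (62.5) and 9 of 17 such no-AA-labelled members (52.9) were shared. In the rest these shares were 64.4 and 60.95. Chromosome 2, at 39.5 and 35.0, became 16.7 and 12.5 with the p limit, and its AA-labelled share 23.1 with the fold limit. Each limit was set on both lists, and only 6 AA-labelled and 8 no-AA-labelled members met the p limit. Of these, 4 of 6 and 4 of 8 overlapped a peak of the full other list. In the rest it was 605 of 826 (73.2) and 550 of 687 (80.1). With the fold limit, 5 of 13 AA-labelled members (38.5) overlapped the full other list, against 60.5 in the rest.

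Peak number (log2 AA over no-AA) was -0.40, -0.33 and -0.07 on chromosomes 4, 13 and 2. It turned to 0.46, 0.50 and 0.24 with the fold limit (0.85, 0.99 and 0.98 in the rest of the chromosomes), and to 0.40, 0.33 and 0.07 with the lists exchanged.

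Tag density in pairs (log2), at 0.14, 0.17 and 0.05, turned to -0.49, -0.46 and -0.58 without scaling, to -0.39, -0.36 and -0.48 with scaling to tags inside peaks, and to -0.14, -0.17 and -0.05 with the lists exchanged. The changes of scaling moved all pairs alike, those of the rest too. For tags per peak the medians became 0.37, 0.56 and 0.42, against 0.53, 0.50 and 0.53 in the rest. On chromosome 4 it was 0.24 with the p limit, 0.04 with the fold limit and 0.25 for the fold itself. With the fold limit it was -0.33 on chromosome 13 and -0.01 on chromosome 2, and with the p limit -0.37 on chromosome 2, in each case from too few pairs for an interval. Cutting the no-AA-labelled list to the length of the other, an alternative chosen after seeing the data, moved no result out of its interval.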

Other observations

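At the distal edge of the chromosome 13 cluster the lists differed in a window of 100 kb, from 67900000 to 68000000, that was picked after its values were seen. The AA-labelled list had 9 peaks there and the no-AA-labelled list 2 (ratio 4.5, 0.931 to 42.8), while the whole cluster had a ratio of 0.796. Both no-AA-labelled peaks were shared, at 67910895 with 49 tags and at 67984270 with 42 tags, against 28 and 45 AA-labelled tags in their counterparts. The 7 unshared AA-labelled peaks had 15 to 36 tags and folds of 5.31 to 12.94. The window with the largest gap the other way was on chromosome 4, from 145300000 to 145400000, with 7 peaks in the AA-labelled and 13 in the no-AA-labelled list (ratio 0.538, 0.182 to 1.45), and there 7 of 7 AA-labelled peaks were shared.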
